A study of Homo sapiens with 10 samples.

Results

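PAX factors are transcription factors that bind DNA through a paired domain, and the genes followed here were PAX2, PAX3, PAX5, PAX6, PAX7, PAX8 and PAX9. They are the 7 named members among 22848 gene symbols found in all 4 deposited tables. Each was looked up by symbol on chromosomes 1 to 22 and X, and the row with the highest mean level was taken where a symbol had several. The rule itself uses no measured difference between cell types, although the members were chosen with earlier results of these data known.

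Poly-A RNA was sequenced in 5 cell types with 2 libraries each, 10 in all: 4 derivatives and the human embryonic stem cells (hESC) from which they were made. All cells belong to WA09, an established line, so the results concern 1 line. The labels do not state whether the libraries of a cell type were separate cultures. Every culture was on Matrigel in DMEM/F-12. For definitive endoderm (DE) the medium held activin A (100 ng/mL) and FGF (8 ng/mL) over 4 days, with Wnt-3a (25 ng/mL) only on the opening day. For splanchnic mesoderm (MESO) BMP-4 (100 ng/mL) and Wnt-3a (25 ng/mL) were put on top of the 4 factors given to hESC, also over 4 days. For neural progenitor cells (NPC) the medium had LDN (500 nM), which blocks BMP receptors, and SB431542, which blocks activin receptors, beside IGF-I and heregulin, over 6 days and without FGF or activin A. For pre-neural crest cells (NCSC) it had SB431542 and the GSK3 inhibitor BIO beside FGF, IGF-I and heregulin, over 6 days and without activin A. The hESC controls had activin A (10 ng/mL), heregulin (10 ng/mL), IGF-I (200 ng/mL) and FGF (8 ng/mL) over 4 days. Seeding was at 90000 cells per square centimetre for NPC and NCSC and at 50000 for the others, so time and density cannot be told apart from the factors in those 2 derivatives.

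In the vertebrate embryo PAX genes are switched on region by region as organs are laid down. PAX6 acts in the forebrain and eye, PAX3 and PAX7 in the dorsal neural tube, neural crest and muscle precursors, and PAX2, PAX5 and PAX8 in the midbrain-hindbrain boundary, with PAX2 and PAX8 also in kidney and ear, PAX8 in thyroid and PAX5 in B cells. PAX1 and PAX9 act in the pharyngeal pouches and sclerotome, and PAX4 in the endocrine pancreas.

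The promoters of the 3 members that rose in at least 1 derivative are shown, as the stretch of 250 bases that ends just before the most upstream RefSeq start of each gene (RefSeq, GRCh38.p14, read 5′ to 3′ on the gene's own strand). Capitals mark CCAAT or its reverse complement ATTGG, and GGGCGG or its reverse complement CCGCCC; the PAX2 window holds none.
PAX2, chr10:100735146-100735395, plus strand: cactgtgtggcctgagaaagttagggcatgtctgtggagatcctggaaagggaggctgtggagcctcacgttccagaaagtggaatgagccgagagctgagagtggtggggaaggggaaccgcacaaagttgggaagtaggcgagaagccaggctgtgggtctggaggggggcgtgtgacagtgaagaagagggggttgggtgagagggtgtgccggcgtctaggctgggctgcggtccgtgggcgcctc
PAX3, chr2:222298999-222299248, minus strand: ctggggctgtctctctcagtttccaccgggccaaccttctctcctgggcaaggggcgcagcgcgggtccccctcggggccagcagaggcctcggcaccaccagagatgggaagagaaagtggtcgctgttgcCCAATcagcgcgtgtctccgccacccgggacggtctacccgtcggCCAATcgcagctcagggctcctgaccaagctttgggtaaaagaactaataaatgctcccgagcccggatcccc
PAX6, chr11:31817962-31818211, minus strand: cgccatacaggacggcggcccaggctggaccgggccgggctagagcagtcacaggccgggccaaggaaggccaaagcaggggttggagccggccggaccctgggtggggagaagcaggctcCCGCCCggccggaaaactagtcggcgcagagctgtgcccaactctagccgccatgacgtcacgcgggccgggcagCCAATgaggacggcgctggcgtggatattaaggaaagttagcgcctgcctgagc
PAX6 had 9 starts in the table and PAX2 had 2, and the data do not say which were used. CCAAT occurred on either strand in 4 of the 7 member windows (PAX3 and PAX8 with 2 copies each, PAX6 and PAX7 with 1) and in 32.0% of 34943 windows of the same length. GGGCGG occurred in the windows of PAX5 and PAX6 and in 42.5% of all windows. The TCF and LEF core CTTTGA occurred in none of the 7, against 11.2% of all windows. The SOX core ACAAT was found for PAX9 alone among the members and in 24.7% of all windows, and TATAAA for PAX5 alone and in 10.8%. The windows of PAX2, PAX3 and PAX6 were 61.6%, 64% and 68.4% G or C, beside a median of 58% over all windows. These matches are letters only.

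Each derivative had its own table with 1 FPKM value for the derivative and 1 for hESC (fragments mapped per kilobase of transcript and per library size, so levels of different genes are set per length). The authors had combined the libraries of a cell type, so there is no spread between libraries to print, and the read depth is unknown. A change here is the difference of log2(FPKM + 1), derivative minus hESC of the same table, which understates changes of low genes. Rose and fell mean that the q-value in the authors' deposited table was below 0.05. A member listed with a statistic of 0 and a p-value of 1 is called not tested. The 4 comparisons share the hESC libraries, so they are not independent, and no test was made between derivatives. The tables were made separately and a shared scale is not stated, so an order of derivatives is a description, and with no spread it cannot be said which neighbours in it differ. In RNA from whole cultures, more cells of a type and more RNA per cell cannot be told apart.

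The labelled cell types were checked against marker genes. In DE 5 of 7 endoderm markers rose, and in NPC 6 of 8 neural progenitor markers did. In NCSC 3 of these 8 neural progenitor markers rose (DLK1, SOX1 and ZNF521) and OTX2 fell. In MESO 9 of 10 splanchnic mesoderm markers rose, and so did 8 of 8 trophoblast and amnion markers, HAND1 and ISL1 being in both lists. In NCSC 3 of 8 neural crest markers rose (SNAI2, SOX9 and NGFR) and 2 fell (FOXD3 and ETS1), and in NPC the same 3 rose and ETS1 fell. FOXD3 was listed at 0 FPKM in NCSC and at 10.7 in hESC, SOX10 stood at 2.91 and 2.57 without passing, and TFAP2A at 0.0463 and 0.289 without a test. FOXD3, SOX10 and TFAP2A, defining genes of the neural crest, were thus absent or no more than 2.91 FPKM in the cells labelled pre-neural crest. Of 7 hESC markers 0 passed in DE (3 had an unadjusted p-value below 0.05), while 6 fell in MESO, 5 fell and 1 rose in NPC, and 4 fell in NCSC.

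The highest PAX levels across the derivatives were PAX6 in NPC and PAX3 in NCSC, an order that was not tested. PAX6 made up 94.2% of the summed PAX level in NPC and PAX3 made up 85.2% of it in NCSC. The 7 members summed to 2.81 FPKM in DE, 3.02 in MESO, 40.4 in NPC and 21.9 in NCSC, against 0.481, 0.421, 0.581 and 0.258 FPKM in hESC of the same 4 tables. PAX6 also led in DE, with 80.0% of the sum, and PAX3 led in MESO, with 68.3%. In hESC the sum was small, and PAX6 led it with 35.0% to 65.3%.

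**Figure D1:**
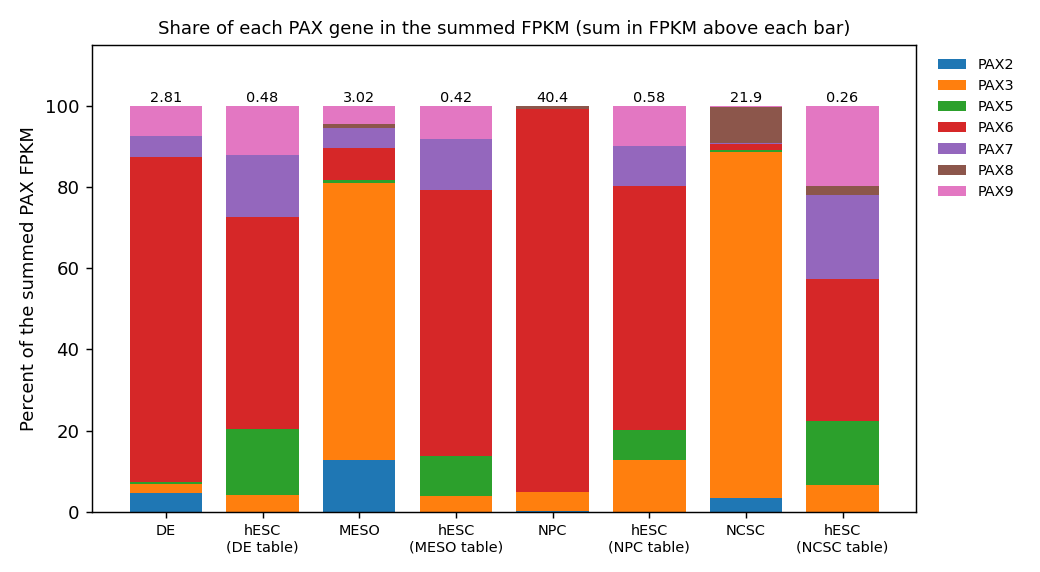
Share of each of the 7 PAX genes (percent) in the summed PAX FPKM, for each derivative and, to its right, hESC of the same table. The number above a bar is the sum in FPKM. PAX6 fills most of the NPC bar (94.2% of 40.4 FPKM) and PAX3 most of the NCSC bar (85.2% of 21.9 FPKM).

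The members at 1 FPKM or more were PAX6 in DE, PAX3 in MESO, PAX3 and PAX6 in NPC, and PAX3 and PAX8 in NCSC. No member reached 1 FPKM in hESC. Of all loci below 1 FPKM in hESC, 5.99% reached it in DE, 9.49% in MESO, 8.52% in NPC and 7.57% in NCSC. By the authors' deposited q-values, 0 of 7 members passed in DE, where 0.427% of 14764 tested loci did (0.406% higher and 0.0203% lower), and 0 had an unadjusted p-value below 0.05. In MESO 1 of 7 passed, where 14.4% of 14771 loci did. In NPC 2 of 7 passed beside 36.8% of 14842 loci, and in NCSC 2 of 7 passed beside 30.0% of 14847. All 5 calls were higher in the derivative. Of tested loci 9.05% were called higher and 5.38% lower in MESO, 12.0% and 24.8% in NPC, and 10.2% and 19.8% in NCSC. The authors' tables tested 1 member in DE, 1 in MESO, 2 in NPC and 3 in NCSC. The shares of tested loci above go with these numbers rather than with 7. A gene this low in hESC could be tested only by being high in the derivative, so the direction of these calls follows in part from that. The median change over the 7 members, tested or not, was 0.09 in DE, 0.12 in MESO, 0.13 in NPC and 0.31 in NCSC. Over all loci, tested or not, it was 0, 0, -0.013 and -0.0069 in the same order. Over tested loci alone it was 0.04, 0.06, -0.25 and -0.22. The NCSC median of the members is the change of PAX6 and becomes 0.079 with hESC values of the other 3 tables, since PAX6 in hESC was lowest in the NCSC table.

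**Figure D2:**
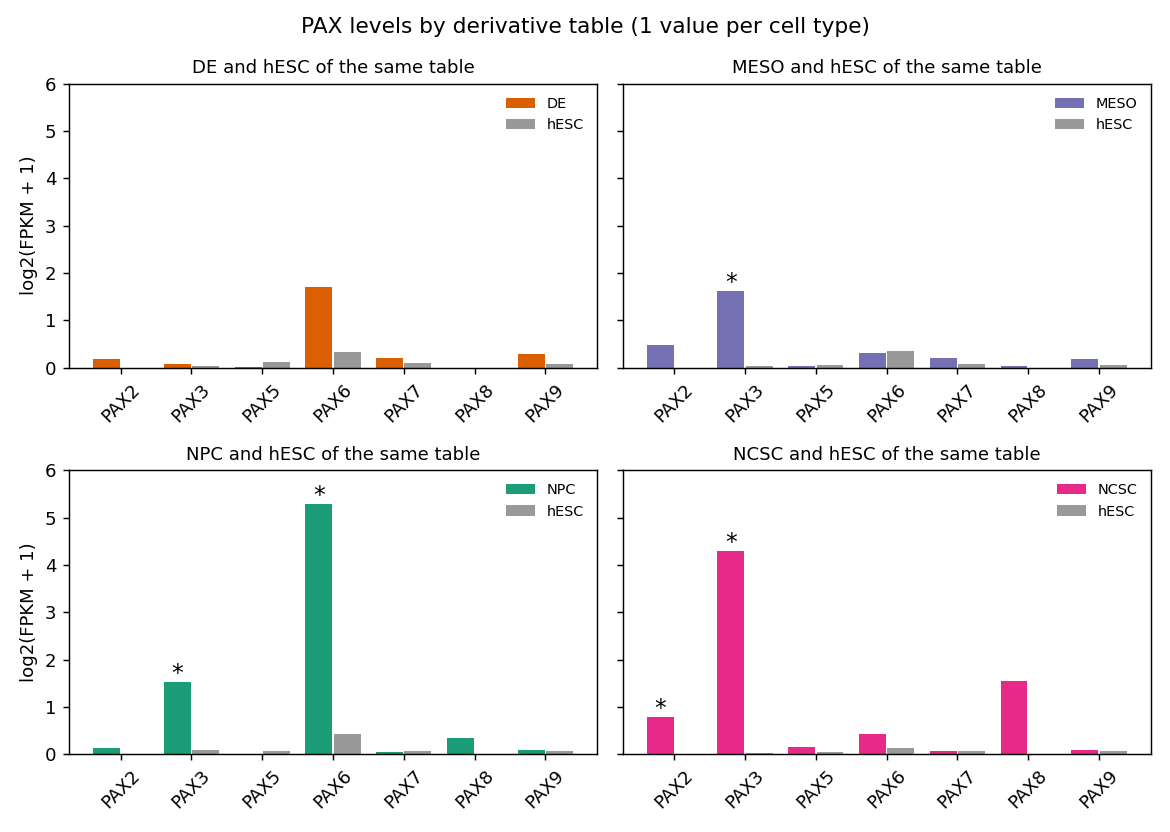
Level of each PAX gene as log2(FPKM + 1), 1 panel per derivative, with the coloured bar the derivative and the grey bar to its right hESC of the same table. A star marks a q-value below 0.05 in the authors' deposited table. Each bar is 1 deposited value with no error. The tallest bars are PAX6 in NPC (38.1 FPKM) and PAX3 in NCSC (18.6 FPKM).

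PAX6, a paired-domain and homeodomain factor that heads eye and forebrain development, had in NPC the highest level of any PAX gene in any column. Its locus lies on chromosome 11, 31531296 to 31908587 (hg19), an interval the tables share with ELP4 and DKFZp686K1684. PAX6 stood at 38.1 FPKM in NPC, 2.25 in DE, 0.348 in NCSC and 0.237 in MESO. In hESC it was listed at 0.349 FPKM in the NPC table, 0.251 in the DE table, 0.0902 in the NCSC table and 0.275 in the MESO table. NPC therefore stood 16.9-fold above DE, and MESO and NCSC lay no higher than the highest hESC value. Relative to hESC of its own table PAX6 rose 109-fold in NPC (log2 change 4.86, rank 20 of 14842 tested loci), with q = 0.000323 and a statistic of 5.21 in the authors' deposited table. Against the lowest of the 4 hESC values the ratio would be 422-fold.

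PAX6 in DE was 2.25 FPKM, against 0.251 FPKM in hESC (8.94-fold, log2 change 1.38). It did not pass there, with p = 0.2047 and q = 0.999 in the authors' deposited table. Of 8 neural progenitor markers 1 rose in DE, OTX2, a head and anterior endoderm factor. Those 8 markers summed to 261 FPKM in DE and 112 in hESC, with 0 of them listed at 0 in DE. Without OTX2 the other 7 summed to 84.5 in DE and 94.6 in hESC, and most of both sums was NES and DLK1. Of the rest, ZNF521 was at 2.57 FPKM in DE against 0.487 in hESC and SIX3 at 0.309 against 0.0419. SOX1 was at 0.0238 against 0.256, and LHX2 and HES5 were at no more than 0.0398 in either. ZNF521 did not pass, and the others of these were not tested. The part of cells with these markers in the PAX6 level was not tested. PAX6 in MESO and in NCSC was not tested by the authors, with log2 changes of -0.04 and 0.31.

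ELP4, a subunit of the Elongator complex whose gene overlaps the PAX6 interval, did not pass in any table. It stood at 30.1 FPKM in NPC against 17.7 in hESC of that table, at 14.9 in DE against 16.0, at 10.1 in MESO against 14.9 and at 17.1 in NCSC against 17.3. The other transcript of the interval, DKFZp686K1684, was listed at 0 or at 0.0343 FPKM. Whether reads were counted by strand is not given in the sources used here, so reads of overlapping genes may have been shared between them.

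PAX3, a regulator of the dorsal neural tube, neural crest and muscle precursors, was called in 3 of the 4 tables by the authors' q-value. Only the NPC call is kept if the listed statistic is read as a normal value, a reading the sources do not state. PAX3 lies on chromosome 2, 223064605 to 223169936 (hg19). Its level was 18.6 FPKM in NCSC, 2.06 in MESO, 1.87 in NPC and 0.0616 in DE. In hESC it was 0.0169 FPKM in the NCSC table, 0.0165 in the MESO table, 0.0737 in the NPC table and 0.0198 in the DE table. NCSC stood 9.04-fold above MESO, the next derivative, while MESO and NPC lay close together and DE lay within the range of the 4 hESC values. The authors' deposited tables had PAX3 rising in NCSC (q = 0.0057), MESO (q = 0.00155) and NPC (q = 0.00133), and it was not tested in DE.

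The log2 change of PAX3 was 4.27 in NCSC, rank 37 of 14847 tested loci, 1.59 in MESO and 1.42 in NPC. The matching ratios, 1102-fold, 125-fold and 25.4-fold, rest on hESC values close to 0 and are uncertain. In NCSC and MESO the statistics beside them were below the median of called loci, and in NPC just above it. PAX3 had 2.03 in NCSC, 1.09 in MESO and 2.81 in NPC in the authors' deposited tables, beside median absolute values over called loci of 2.71, 2.93 and 2.76. Among the called loci with a statistic, 18.1% of 4333 in NCSC, 0.392% of 2041 in MESO and 51.6% of 5317 in NPC had an absolute statistic as small as that of PAX3. The p-values listed for PAX3 in the authors' deposited tables were 9e-04 in NCSC, 1e-04 in MESO and 0.00025 in NPC. The same statistics read as standard normal values would correspond to tail areas on both sides of 0.0420 in NCSC, 0.276 in MESO and 0.00497 in NPC. Adjusted over all tested loci by the Benjamini-Hochberg method, these gave q = 0.163 in NCSC and 0.845 in MESO, where the PAX3 call is then lost, and 0.0270 in NPC, where it is kept. How the authors made their p-values is not stated, and the smallest in each table is 5e-05. A mismatch the other way also occurs, since LHX2 in NPC had a statistic of 6.94 with p = 0.0192 in the authors' deposited table. The normal reading therefore cannot decide whether the PAX3 calls hold.

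**Figure D3:**
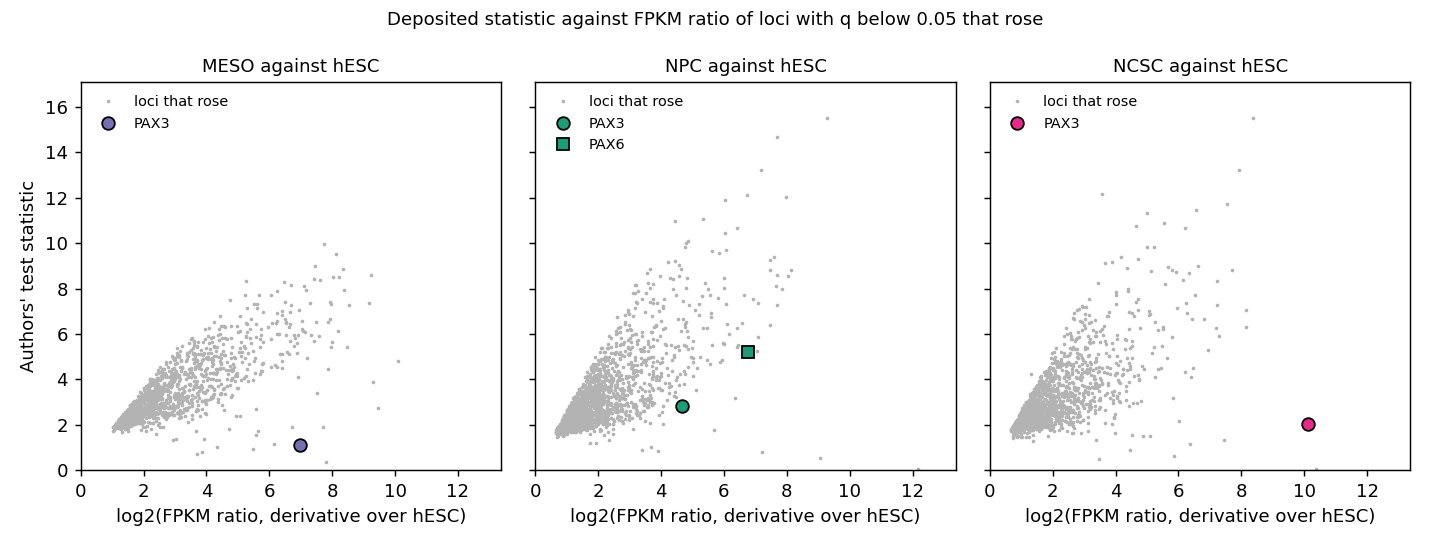
The authors' test statistic against the log2 ratio of deposited FPKM (derivative over hESC) for loci that rose in MESO, NPC and NCSC and had a value above 0 in both cell types. Large symbols are PAX3 and PAX6 and small grey points are the other loci. PAX3 lies low for its ratio in MESO (statistic 1.09) and in NCSC (2.03), and PAX6 in NPC has a statistic of 5.21.

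PAX3 in MESO, NPC and NCSC can be set beside the neural crest markers. These 8 genes summed to 183 FPKM in MESO against 46.1 in hESC, to 42.3 in NPC against 52.2 and to 47.0 in NCSC against 48.9. In MESO 3 of the 8 rose (SNAI2, TFAP2A and SOX9), 2 fell (SOX10 and NGFR) and 0 were listed at 0. In NPC 3 rose, 1 fell and 0 were listed at 0. In NCSC 3 rose, 2 fell and FOXD3 alone of the 8 was listed at 0. The trophoblast and amnion markers, of which TFAP2A is also a neural crest marker, summed to 1364 FPKM in MESO against 5.29 in hESC, to 0.733 in NPC against 5.98 and to 0.718 in NCSC against 5.61. In NPC and in NCSC CGA and ISL1 were the 2 of 8 listed at 0. The 8 neural progenitor markers summed to 142 FPKM in MESO against 106 in hESC, to 1965 in NPC against 116 and to 658 in NCSC against 109. Most of each of these sums was NES and DLK1. Of the remaining markers SOX1 was at 9.56 FPKM in NCSC and 5.24 in NPC, and ZNF521 at 5.91 and 47.2. HES5, LHX2, SIX3 and OTX2 were at no more than 0.610 FPKM in NCSC. In NPC they were at 50.9, 29.0, 54.9 and 153 FPKM. The part of cells of any of these types in the PAX3 level was not tested.

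PAX7, the close relative of PAX3 in the same tissues and in muscle stem cells, stayed low and was not tested in any table (chromosome 1, 18957499 to 19075360, hg19). PAX7 had 0.145 FPKM in DE against 0.0724 in hESC, 0.148 in MESO against 0.0537, 0.0398 in NPC against 0.0572 and 0.0512 in NCSC against 0.0537. The PAX3 levels of MESO, NPC and NCSC thus had no counterpart of similar size in PAX7.

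PAX2, PAX5 and PAX8 are related genes of the midbrain-hindbrain boundary, kidney, ear and other organs. PAX2, an early kidney and optic stalk gene, was listed at 0 in all 4 hESC columns (chromosome 10, 102505467 to 102589698, hg19). PAX2 stood at 0.721 FPKM in NCSC, 0.383 in MESO, 0.132 in DE and 0.0908 in NPC. It rose in NCSC, with q = 0.000455 in the authors' deposited table and no statistic listed, and was not tested in the others. No ratio is given because hESC was listed at 0. Of the 180 tested loci in the NCSC table with no statistic, 122 were called. Of 696 loci listed at 0 in hESC and above 0 in NCSC, 35 were called. The PAX2 level stayed below 1 FPKM, and its log2 change of 0.78 ranked 1713 of 14847.

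PAX8, a thyroid, kidney and ear gene, shares its interval with the antisense RNA PAX8-AS1, listed as LOC654433 (chromosome 2, 113973573 to 114036498, hg19). PAX8 was at 1.94 FPKM in NCSC, 0.274 in NPC and 0.0265 in MESO, and was listed at 0 in DE. In hESC it was 0.00531 FPKM in the NCSC table and listed at 0 in the other 3. PAX8 did not pass in NCSC (p = 0.0183, q = 0.0673, statistic 0.738 in the authors' deposited table), where its log2 change of 1.55 was rank 517 of 14847. LOC654433 stood at no more than 0.117 FPKM in NCSC in either of its rows, so PAX8 was the higher of the overlapping pair there. PAX5, which fixes B cell identity, was not tested in any table (chromosome 9, 36838530 to 37034476, hg19). PAX5 had 0.114 FPKM in NCSC against 0.0406 in hESC, 0.0226 in MESO against 0.0416, 0.00942 in DE against 0.0783, and was listed at 0 in NPC against 0.0436.

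PAX9, a gene of pharyngeal pouches, sclerotome and teeth, was highest in DE and was not tested anywhere. PAX9 had 0.214 FPKM in DE against 0.0589 in hESC, 0.138 in MESO against 0.0343, 0.0678 in NPC against 0.0575 and 0.0733 in NCSC against 0.0514. Its locus on chromosome 14 runs from 37126772 to 37147011 (hg19) in the DE and MESO tables. In the NPC and NCSC tables it runs to 37643730 and 37642998 and takes in SLC25A21 and LOC100129794, so its levels there may include reads of those genes. Of the remaining family members, PAX1 was listed at 0 in all columns, and PAX4 lay between 0.00869 and 0.0984 FPKM, not tested.

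The low hESC levels differed between the tables although the labels give only 2 hESC libraries. PAX6 in hESC ranged 3.87-fold over the 4 tables and PAX3 4.47-fold. Over 2186 genes between 0.05 and 0.5 FPKM in every hESC column the median ratio of highest to lowest was 1.48, and 90% lay within 2.18. PAX6 belongs to these genes, while PAX3 lies below 0.05 FPKM in 3 of the 4 columns and has no such comparison here. ELP4 ranged 1.19-fold, beside a median of 1.22 over 9299 genes at 5 FPKM or more. PAX6 in NPC lies above each of its hESC values, as PAX3 does in NCSC, MESO and NPC.

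The genes most like a member were taken by the Euclidean distance of the 4 log2 changes, over 15378 symbols with 1 FPKM or more in any cell type. The nearest to PAX6 were SIX3 at 1.35, DACH1 at 1.43, LHX2 at 1.45, HES5 at 1.49 and RAX at 1.57. SIX3, RAX and LHX2 are forebrain and eye field factors, DACH1 is a retinal determination cofactor and HES5 is a NOTCH target. SIX3 was at 54.9 FPKM in NPC against 0.196 in hESC, and RAX at 30.1 against 0.156. LHX2 did not pass in any table, with 29.0 FPKM in NPC against 0.0482 in hESC. Of these 5 genes DACH1 alone exceeded 1 FPKM in DE (1.20 FPKM against 0.0719 in hESC).

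The nearest to PAX3 were C11orf96 at 0.84, TMEM132C and NKD1, both at 1.23, HOTAIRM1 at 1.39 and PTCHD4 at 1.40. NKD1 is a feedback inhibitor of WNT signalling and HOTAIRM1 a noncoding RNA of the HOXA cluster. NKD1 was at 27.3 FPKM in NCSC against 1.04 in hESC. HOTAIRM1 was at 40.2 FPKM in NCSC against 0.0953 in hESC without passing. For PAX8 the nearest were STXBP5L at 0.17, NCKAP5 at 0.18, LOC79015 at 0.22, PPP1R42 at 0.23 and AFF3 at 0.25, where distances are short because the changes are small. PPP1R42 is there by its change alone, since its hESC level was 76.1 FPKM in the NCSC table and 0 in the other 3.

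**Figure D4:**
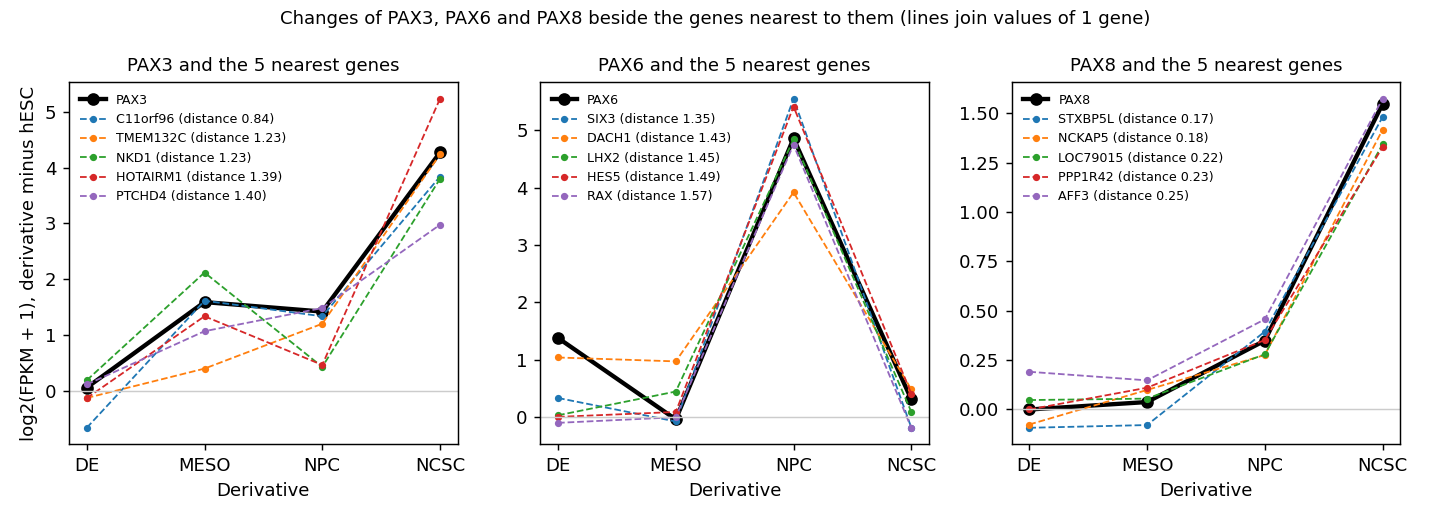
Log2 change (FPKM + 1, derivative minus hESC of the same table) in DE, MESO, NPC and NCSC of PAX3, PAX6 and PAX8 (black) and the 5 genes nearest to each (dashed). Lines only join values of 1 gene. The genes near PAX6 peak in NPC with it, and those near PAX3 and PAX8 are highest in NCSC. They were chosen by these same changes, so the shared peaks follow from the choice.

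Partner genes of PAX factors, and genes of the tissues where PAX factors act, were read from lists. The number of genes given for a list includes those not tested. For the lists with 0 calls in DE in the next paragraphs, the genes with an unadjusted p-value below 0.05 in the authors' deposited table were 1 for the sine oculis, EYA and DACH genes, 0 for border and crest, 1 for somite and muscle and 1 for cofactors. Among sine oculis homologues (such as SIX3), EYA and DACH genes, which act with PAX genes in eye, ear and kidney, 5 of 11 rose in NPC and 0 fell. Their median change in NPC was 0.59, beside -0.013 over all loci and -0.25 over tested loci alone. SIX3 was at 54.9 FPKM in NPC against 0.196 in hESC, DACH1 at 19.3 against 0.342, SIX6 at 1.85 against a listed 0, and EYA1 at 1.93 against 0.388. In MESO EYA2 (7.62 FPKM against 0.389 in hESC) and EYA1 (4.33 against 0.321) rose of 11, in NCSC EYA1 alone (2.46 against 0.359), and in DE 0 of 12, the median changes being -0.03, 0.07 and 0.15.

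Of 14 neural plate and eye field genes 11 rose in NPC and 0 fell, with a median change of 3.24. Besides SIX3 these included HES5 (50.9 FPKM in NPC against 0.220 in hESC), ZNF521 (47.2 against 0.723) and RAX (30.1 against 0.156). Of the genes in this list, SOX1, OTX2, SIX3, LHX2, HES5 and ZNF521 are also neural progenitor markers. SIX3 and SIX6 are in the sine oculis list too, and SIX3, LHX2, HES5 and RAX are among the genes nearest to PAX6. The counts therefore overlap and are not separate evidence. In NCSC 4 rose and 2 fell of 14. SOX1, an early neural factor, was at 9.56 FPKM in NCSC against 0.284 in hESC, and OTX2 fell to 0.0376 against 22.5. In MESO 2 rose and 3 fell of 15, and in DE OTX2 alone rose of 15, the medians in NCSC, MESO and DE being -0.01, 0 and 0.00. OTX2, which marks forebrain and midbrain in the neural tube, was at 153 FPKM in NPC against 23.8 in hESC, at 177 in DE against 17.1 and at 1.25 in MESO against 20.6. OTX2 thus rose in NPC and in DE, where PAX6 was at 38.1 and 2.25 FPKM, in DE without passing. OTX2 fell in NCSC and in MESO, where PAX3 was at 18.6 and 2.06 FPKM. PAX3 rose in NPC too, at 1.87 FPKM, close to its MESO level, so PAX3 was not confined to derivatives where OTX2 fell.

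Genes of the midbrain-hindbrain boundary, where PAX2, PAX5 and PAX8 are known to act, moved both ways. GBX2, a hindbrain-side factor, was at 13.6 FPKM in NCSC against 0.897 in hESC, and SPRY1, an inhibitor of FGF signalling, at 2.75 against 15.4. FGF8, the boundary signal, rose in NPC (48.4 FPKM against 2.79 in hESC), while FGF17 fell there (0.217 against 5.38) and rose in DE (916 against 8.44). EN1, EN2 and WNT1 of the same list stood at no more than 0.0715 FPKM in NPC and in NCSC and were not tested there. Of the 11 genes 1 rose and 2 fell in NCSC, 2 rose and 1 fell in NPC, 2 rose in DE and 1 fell in MESO, with medians of -0.03, 0.02, 0.02 and -0.08.

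Of 19 neural plate border and neural crest genes, the group PAX3 and PAX7 belong with, 5 rose and 4 fell in NCSC, with a median change of 0.13. SNAI2 was at 11.7 FPKM in NCSC against 0.286 in hESC. GBX2, counted in the boundary list as well, also rose there, while FOXD3 (listed at 0 in NCSC) and ETS1 fell. In MESO 8 rose and 3 fell, with a median of 1.71. MSX2 was at 147 FPKM in MESO against 1.02 in hESC, SNAI2 at 80.9 against 0.243, MSX1 at 47.7 against 0.194 and TFAP2A at 38.8 against 0.316. In NPC 3 rose and 5 fell, with ETS1 at 0.337 FPKM against 28.5 in hESC among those that fell and a median of -0.16. In DE 0 of 19 passed, with a median of 0.04. The PAX3 level was 2.06 FPKM in MESO and 18.6 in NCSC beside these counts, and the difference between the counts was not tested.

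**Figure D5:**
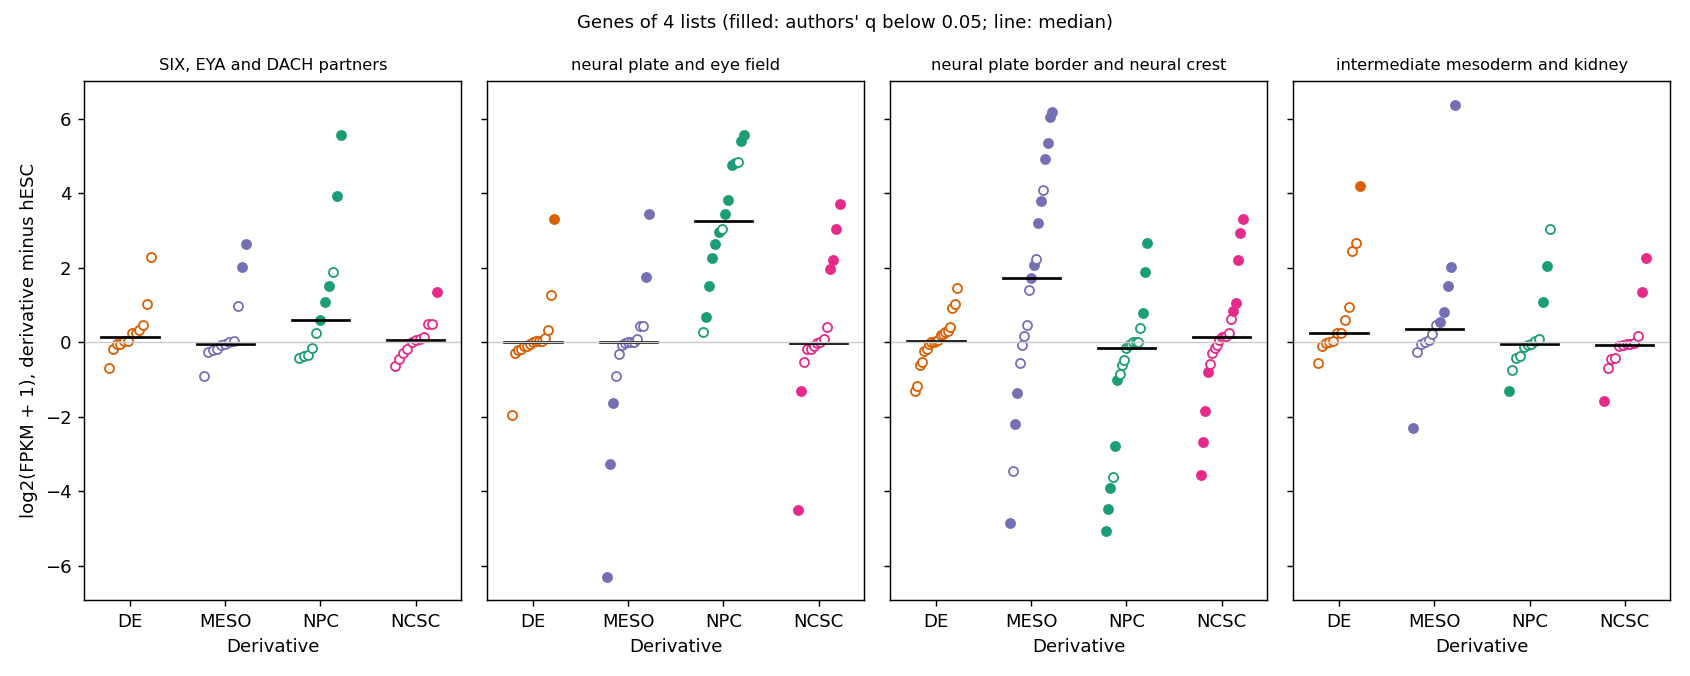
Log2 change (FPKM + 1, derivative minus hESC) of each gene of 4 lists in each derivative. Filled circles had a q-value below 0.05 in the authors' deposited table, open circles did not, and black lines are medians over the list. The neural plate and eye field genes are high in NPC (median 3.24) and the border and crest genes in MESO (median 1.71).

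Of 13 somite and muscle genes, where PAX3 and PAX7 also act, 1 rose in MESO (FOXC2, 1.67 FPKM against 0.144 in hESC), 2 fell in NPC, 1 rose and 1 fell in NCSC and 0 passed in DE. In NCSC MEOX1 rose (1.05 FPKM against a listed 0) and MET fell (0.150 against 3.95). MYF5 and LBX1 were listed at 0 in MESO, NPC and NCSC. Medians were -0.02 in MESO, -0.03 in NPC, -0.03 in NCSC and 0 in DE.

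Of 12 intermediate mesoderm and kidney genes, where PAX2 and PAX8 act, 5 rose and 1 fell in MESO, with a median change of 0.34. These included GATA3 (114 FPKM in MESO against 0.383 in hESC), which is also a trophoblast marker, EYA1 and OSR1 (1.87 against a listed 0), and RET fell (0.225 against 4.97). In NCSC, where PAX2 rose, 2 rose and 1 fell. SALL1 was at 57.0 FPKM in NCSC against 11.2 in hESC, and WT1 was listed at 0 there. In NPC 2 rose and 1 fell, and SALL1, RET and EYA1 were the genes called there and in NCSC alike. PAX2 was at 0.0908 FPKM in NPC and was not tested there, so these calls are not particular to the derivative where PAX2 rose. In DE LHX1 alone rose (39.2 FPKM against 1.18 in hESC). The medians were -0.06 in NCSC, -0.05 in NPC and 0.25 in DE.

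Among 8 PAX cofactors outside merged loci, the TALE and TLE proteins and LEF1, 4 rose in MESO, 4 rose and 2 fell in NPC, 3 rose and 2 fell in NCSC and 0 passed in DE. LEF1, which acts in WNT signalling, was at 24.6 FPKM in NCSC against 0.346 in hESC, at 24.8 in MESO against 0.315 and at 5.30 in NPC against 0.443. MEIS2, a homeodomain partner, was at 13.6 FPKM in NCSC against 0.123 in hESC, at 11.1 in MESO against 0.112 and at 11.2 in NPC against 0.118. The median changes were 1.40 in MESO, 0.85 in NPC, 0.18 in NCSC and 0.15 in DE.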

How the data were processed

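Poly-A RNA of 10 libraries was sequenced, per the labels' protocols. Cufflinks 2.2.1, TopHat2 2.0.13, Subread 1.5.2 and featureCounts appear, with build hg19, in the submitters' processing notes, which leave out what each did. How values were scaled, and whether reads were counted by strand, is not given in the sources used here. As deposited by the authors there were 4 tables with 1 FPKM value per cell type, the libraries combined. The deposited test statistic is a signed score, and the p-value and q-value are the authors', per the file headers.

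Rows on chromosomes 1 to 22 and X were kept, commas in the gene column were split, and the row of highest mean FPKM per symbol was used. Changes are differences of log2(FPKM + 1), with a pseudocount of 1. The planned limma test could not be run because libraries are not given singly, so the authors' q-value below 0.05 defines a call. The computation was tested on simulated data. Python 3.11.15, pandas 2.3.3, numpy 2.4.6, scipy 1.17.1 and matplotlib 3.10.9 were used.

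The members and 19 gene lists (162 symbols, all found) were chosen with earlier results of these data known. Genes in loci merged under several symbols, and 10 symbols whose deposited values disagree in sign or format, NANOG among them and no member, were left out of list counts. Named genes were the members, PAX1 and PAX4. From each list they were up to 4 called genes with the largest change, or 2 with the highest mean FPKM where none was called. The 5 nearest genes of each member at 1 FPKM or more were also named. Not every gene so chosen is printed. Genes named in the checks of cell type, overlapping loci, listed zeros, low boundary genes and statistics were chosen after their values were seen. Promoter windows come from RefSeq tables for GRCh38.p14 and share no coordinates with the hg19 loci. Alternatives were pseudocounts of 0.1 and 5, hESC values of the other tables, summed rows, quantile normalization, a minimum of 1 FPKM or of 1 in log2 change, and normal p-values from the statistic.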

Additional observations from a re-analysis of the deposited data

How the results depend on the processing

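No paired analysis was possible because the tables hold 1 value per cell type, and leaving out single libraries could not be run for the same reason, so every difference is without a replicate check and depth is unknown. The members called were 0 in DE and 2 in NPC under each of the 3 settings that bear on calls (a minimum of 1 FPKM, a minimum log2 change of 1, and normal p-values). In MESO the 1 call became 0 with normal p-values from the statistic (PAX3 q = 0.845). In NCSC the 2 calls became 1 with a minimum of 1 FPKM, 1 with a minimum log2 change of 1, both losing PAX2, and 0 with normal p-values (PAX3 q = 0.163), where PAX2 has no statistic; the cause was not tested. With normal p-values PAX3 and PAX6 in NPC kept q = 0.0270 and 5.27e-06. The median change over the members, 0.09 in DE, 0.12 in MESO, 0.13 in NPC and 0.31 in NCSC, was 0.50, 0.69, 0.93 and 1.24 with a pseudocount of 0.1 and 0.020, 0.027, 0.026 and 0.071 with a pseudocount of 5. With hESC values of the other tables it was 0.12 in DE, 0.11 in MESO and 0.079 in NCSC, and with quantile normalization 0.11, 0.13, 0.17 and 0.39 in DE, MESO, NPC and NCSC. Summing all rows of a symbol could not change the values, since no member had more than 1 row. A change of pseudocount cannot reverse a direction, and neither can other hESC values for PAX2, listed at 0 in all of them. With hESC values of the other tables PAX3 and PAX6 kept the direction of their calls, and with quantile normalization all called values did. Over these settings the size varied: PAX6 in NPC ranged from 3.01 to 6.41, PAX3 from 2.24 to 7.32 in NCSC, 0.49 to 4.21 in MESO and 0.44 to 3.51 in NPC, and PAX2 in NCSC from 0.19 to 3.04.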

Other observations

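Gene lists for other PAX tissues are given beside the shares of all tested loci called, 0.427% in DE, 14.4% in MESO, 36.8% in NPC and 30.0% in NCSC. The list counts include genes not tested, so counts and shares are not like for like. In the order DE, MESO, NPC and NCSC, 5, 4, 5 and 3 of the 10 pharyngeal genes were not tested. The same held for 5 of the 7 thyroid genes in each derivative, for 5, 3, 2 and 3 of the 9 B cell genes and for 6, 4, 4 and 5 of the 10 lens genes. Where 0 of a list passed, 1 gene of it had an unadjusted p-value below 0.05 in the authors' deposited table. Of 10 pharyngeal endoderm and sclerotome genes, where PAX1 and PAX9 act, 0 passed in DE, 2 rose in MESO (EYA1 and NKX2-3), 1 rose and 1 fell in NPC and 1 rose and 2 fell in NCSC. FOXA2, an endoderm factor, was at 35.2 FPKM in DE against 1.27 in hESC without passing, and TBX1, a pharyngeal factor, was at 0.0332 in NCSC against 5.14 in hESC. Of 7 thyroid genes 0 passed in DE or MESO, 2 fell in NPC and 1 fell in NCSC, so PAX8 at 1.94 FPKM in NCSC stood beside a thyroid list summing to 0.525 FPKM there against 2.46 in hESC. Of 9 B cell genes 0 passed in DE, 1 rose and 1 fell in MESO, 1 rose and 2 fell in NPC and 2 fell in NCSC. Of 10 lens and placode genes 0 passed in DE, 2 rose in MESO, 2 rose and 1 fell in NPC and 3 rose and 2 fell in NCSC. MAF, a lens fibre factor, was at 6.42 FPKM in NPC against 0.239 in hESC. Median changes over these lists, in the order DE, MESO, NPC and NCSC, were 0, 0.18, -0.01 and 0.18 for pharyngeal genes, 0, -0.03, -0.02 and -0.02 for thyroid, -0.08, 0, -0.09 and 0.00 for B cell and -0.18, 0.18, 0.05 and -0.04 for lens.

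CCDC140, beside PAX3, was at 0.105 FPKM in NCSC against 0.0137 in hESC and was not tested. RCN1, a calcium-binding protein gene near PAX6, did not pass in NPC (50.1 FPKM against 34.1 in hESC) and rose in NCSC (61.8 against 30.9) and MESO (62.8 against 28.4). PSD4, near PAX8, rose in MESO (2.82 FPKM against 0.162 in hESC) and was not tested in NCSC. Of the neighbours outside merged loci 0 of 14 passed in DE by the authors' q-value or by an unadjusted p-value below 0.05, 2 of 13 rose in MESO, 1 fell in NPC, and 1 rose and 1 fell in NCSC.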
